A study of Mus musculus with 4 samples.

Results

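Cardiac macrophages that transcribe Ccr2, the receptor for the monocyte chemoattractant CCL2, were examined in the uninjured mouse heart. A cell of the baseline library belonged to this group when it held at least 1 Ccr2 unique molecular identifier (UMI, a tag that marks 1 captured transcript), no UMI of Lyve1, Cd163 or Ly6c2, and at least 30 UMIs of C1qa, C1qb and C1qc together for every 10000 UMIs. The rule was met by 903 of the 10238 baseline cells, 8.82% (exact 95% binomial interval 8.28 to 9.39), and by 13.5% of the 6672 C1q-positive cells (interval 12.7 to 14.4). These cells are called Ccr2+ macrophages below. They were compared with the 4613 C1q-positive cells without a Ccr2 UMI, called Ccr2-negative cells, and with the narrower set of 1112 of those cells that also lacked Lyve1, Cd163 and Ly6c2. Since the rule was written on transcripts of these same cells, differences within the baseline library are described and not tested.

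The heart holds resident macrophages, many of which carry the hyaluronan receptor LYVE1 and the haemoglobin scavenger receptor CD163 and renew themselves locally. A further population carries CCR2 and is replenished from circulating monocytes, which in the mouse are marked by Ly6C. C1q, a starter of the classical complement cascade, is made by mature macrophages and little by monocytes. CCR2+ cardiac macrophages are known for major histocompatibility complex (MHC) class II, which presents peptides to CD4+ T cells.

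The series comprised 4 droplet libraries of CSF1R-EGFP+ mice, 12 to 16 weeks old, in which the Csf1r promoter drives a green fluorescent protein that was used to sort the cells after Ly6G+ neutrophils had been gated out. The baseline library pooled 3 hearts from mice without surgery. Each of the 3 infarct libraries held 1 heart taken 7 days after ligation of the left coronary artery, and the non-infarcted remote zone was not digested, so that the sampled region differed between the groups as well. The reporter also labels monocytes and other cells that use the Csf1r promoter, and pooling hides differences between the 3 hearts. After filtering, 41533 cells of all libraries remained. The median UMI count per cell was 6398.5 in the baseline library and between 8469.5 and 8556.5 in the infarct libraries, and any pair of libraries shared between 26 and 34 cell barcodes.

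The same rule was met by far more cells in the infarcts. Ccr2+ macrophages made up 52.9%, 48.2% and 48.4% of the C1q-positive cells of infarct replicates 1, 2 and 3 (49.9% ± 2.66, SD, n = 3), against 13.5% in the baseline library. All 3 infarct libraries lay above baseline, and no test was run against the single baseline library. The part of the rule that asks for no Lyve1, Cd163 or Ly6c2 acted unequally, removing 56.1% of the C1q-positive cells with a Ccr2 UMI at baseline and 10.6% to 15.0% in the infarcts. Before this step, 30.9% of baseline C1q-positive cells held a Ccr2 UMI (interval 29.8 to 32.0), and 57.1% ± 4.51 did so in the infarcts. After every cell of 2000 UMIs or more had been reduced to 2000 and the rule applied anew, the shares were 16.7% at baseline and 38.6% ± 4.80 in the infarcts.

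**Figure D1:**
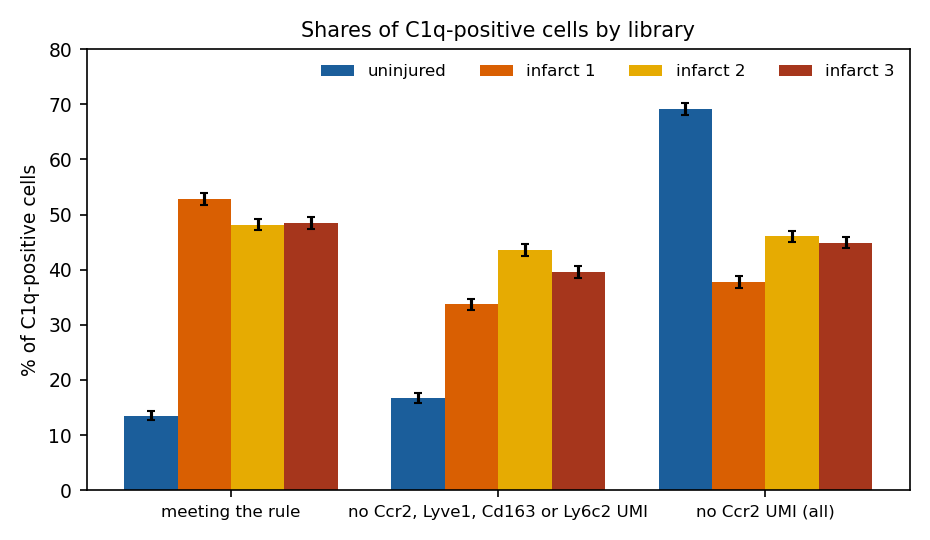
Share of C1q-positive cells, in percent, that met the rule, that lacked all of Ccr2, Lyve1, Cd163 and Ly6c2, or that lacked a Ccr2 UMI, in each library, with bars starting at 0. Error bars are exact 95% binomial intervals for counting error within a library; cells meeting the rule were 13.5% in the uninjured library and 48.2% to 52.9% in the infarct libraries.

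Ccr2 itself was found at 1347 CPM (UMIs of a gene per 1000000 UMIs, mitochondrial genes left out) in the summed Ccr2+ macrophages. Its median was 8 UMIs per cell. Only 131 cells (14.5%) rested on exactly 1 Ccr2 UMI, and 404 (44.7%) held 10 or more. Cells that should lack Ccr2 gave a measure of stray transcripts: 7 of 93 cells with endothelial markers (7.53%, interval 3.08 to 14.9) and 3 of 66 with B-cell markers (4.55%, interval 0.947 to 12.7) held a Ccr2 UMI, at median depths of 2627 and 3174 UMIs, and their summed Ccr2 was 41.0 and 31.3 CPM. Among C1q-positive cells without Lyve1, Cd163 or Ly6c2, 44.8% held a Ccr2 UMI at a median depth of 5786, and after thinning to 2000 UMIs the shares were 40.6% here, 3.39% in the endothelial marker cells and 0 of 62 in the B-cell marker cells (exact interval up to 5.78%). C1q-positive cells with 3 or more Lyve1 UMIs held a Ccr2 UMI more often than the marker cells. They did so in 300 of 1820 (16.5%, interval 14.8 to 18.3), at a median depth of 8600 UMIs. Their share after thinning was 10.2%, and their summed Ccr2 was 147 CPM. Whether these were stray transcripts was not tested. Ccr2+ macrophages were deeper (median 7293 UMIs) than the Ccr2-negative cells (6167) and the narrow set (4901). The C1q minimum did not fall in a gap of the distribution. Of cells that met the other parts of the rule, 24 lay just outside it, at 25 to 30 UMIs per 10000. Just inside it, at 30 to 35, lay 27. Other steps held 621 cells under 10, 77 at 10 to 20, 96 at 40 to 60 and 238 at 60 to 100.

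The macrophage label was checked against marker lists. All 13 genes of a macrophage list, such as the M-CSF receptor Csf1r at 904 CPM, the F4/80 gene Adgre1 at 338 CPM and the Fc receptor Fcgr1 at 163 CPM, were detected, and none of them differed from the Ccr2-negative cells by 2-fold. Of the dendritic cell list, 3 of 15 genes reached 50 CPM and 2 of those, Itgax at 61.2 against 14.6 CPM and Napsa at 54.8 against 12.6 CPM, were past 2-fold higher and none lower (median 1.52), and the list summed to 280 CPM against 175 CPM in the Ccr2-negative cells. Its defining members were in few cells, with a UMI of Flt3 in 2.44%, of Zbtb46 in 1.11% and of Cd209a in 3.54%, against 3.23%, 21.5% and 3.23% of the endothelial marker cells. In the 66 B-cell marker cells these shares were 1.52%, 0% and 1.52%, so the 2 marker sets differed widely for Zbtb46. In the Ccr2-negative cells the shares were lower for Flt3, at 0.564%, and for Cd209a, at 0.585%. UMIs of Flt3 and Cd209a were thus more frequent in Ccr2+ macrophages than in their comparator. Of the classical monocyte list, 4 of 6 measured genes were past 2-fold higher and none lower (median 1.35). These were S100a4, S100a6, Fn1 and Ms4a4c, and the list summed to 15308 CPM against 14491 CPM. Plac8, also of that list, stood at 53.9 CPM, against 31.3 CPM in the Ccr2-negative cells and 3185 CPM in the 953 baseline cells with Ccr2 and Ly6c2 UMIs and C1q below the minimum. Of the lists of other cell types, T and NK cell genes summed to 0.436 CPM, erythroid genes to 3.05, fibroblast genes to 13.2, endothelial genes to 25, cardiomyocyte genes to 52.3 and neutrophil genes to 56.5 CPM in Ccr2+ macrophages, and to 1.54, 5.49, 9.01, 15.6, 71.5 and 34.1 CPM in the Ccr2-negative cells. The part of these levels in the results was not tested.

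In the uninjured heart Ccr2+ macrophages were rich in Retnla, Tnip3, S100a6 and MHC class II and poor in genes of resident macrophages. Of 3472 genes with at least 50 CPM in either class, 46 (1.32%) were at least 2-fold higher and 97 (2.79%) at least 2-fold lower than in the Ccr2-negative cells, on a log2 ratio with 10 CPM added to both sides. The median of all these genes was -0.06. The largest ratio belonged to Tnip3, whose product restrains NF-κB signalling downstream of TNF and Toll-like receptors: 188 CPM (95% Poisson interval 178 to 199) in Ccr2+ macrophages and 10.9 CPM (9.72 to 12.2) in Ccr2-negative cells, a log2 ratio of 3.25. A Tnip3 UMI was found in 28.6% of the Ccr2+ macrophages, 3.01% of the Ccr2-negative cells and none of the 93 endothelial marker cells.

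Retnla encodes the secreted protein RELMα, a marker of macrophages under IL-4 or IL-13. It reached 1482 CPM (1453 to 1511) in Ccr2+ macrophages, 243 CPM in the Ccr2-negative cells and 95 CPM in the narrow set. The ratio came from a minority of cells, since 21.6% of Ccr2+ macrophages held a Retnla UMI against 16.7% of the Ccr2-negative cells and 12.9% of the endothelial marker cells, and 45.0% of its UMIs in Ccr2+ macrophages lay in 10 cells. Without the 10 richest cells of each class the log2 ratio moved from 2.56 to 2.16. Genes that were spread over more cells included Emb, a chaperone of monocarboxylate transporters, at 196 against 32.5 CPM and in 54.3% against 14.2% of cells. Olfm1, a secreted olfactomedin, stood at 78.9 against 8.84 CPM and was found in 31.2% against 4.75% of cells. The calcium-binding protein gene S100a6 stood at 796 against 252 CPM, and Tmsb10, which encodes an actin-sequestering thymosin, at 421 against 98.3 CPM. The remaining genes of the 15 with the highest ratios were Gpnmb, Spp1, Mmp12, Fabp5, Thbs1, Lyz1, Lgals3, Fn1 and Itgax, with log2 ratios from 1.53 for Itgax, which encodes CD11c, to 2.51 for Gpnmb.

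The genes with the lowest ratios were those of resident macrophages. Folr2, the folate receptor β, stood at 23.7 CPM in Ccr2+ macrophages and 668 CPM in the Ccr2-negative cells, a log2 ratio of -4.33. F13a1, the coagulation factor XIII A chain, stood at 327 against 1929 CPM and Cbr2, a carbonyl reductase, at 81.0 against 674 CPM. Timd4, a receptor for phosphatidylserine on dying cells, was at 3.78 against 105 CPM, and Gas6, a ligand that bridges dying cells to MERTK, at 53.1 against 401 CPM. The others of the 15 lowest were Ltc4s, Chp2, Colec12, Ccl24, C4b, Ccl8, Ednrb, Vsig4, Fcna and Cp. In the resident macrophage list, 12 of 13 measured genes were past 2-fold lower and 1, Retnla, was higher (median -2.49). The rule removes cells with Lyve1 or Cd163, and 3493 of the 4613 Ccr2-negative cells held such a UMI, so this direction comes partly with the choice of cells.

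**Figure D2:**
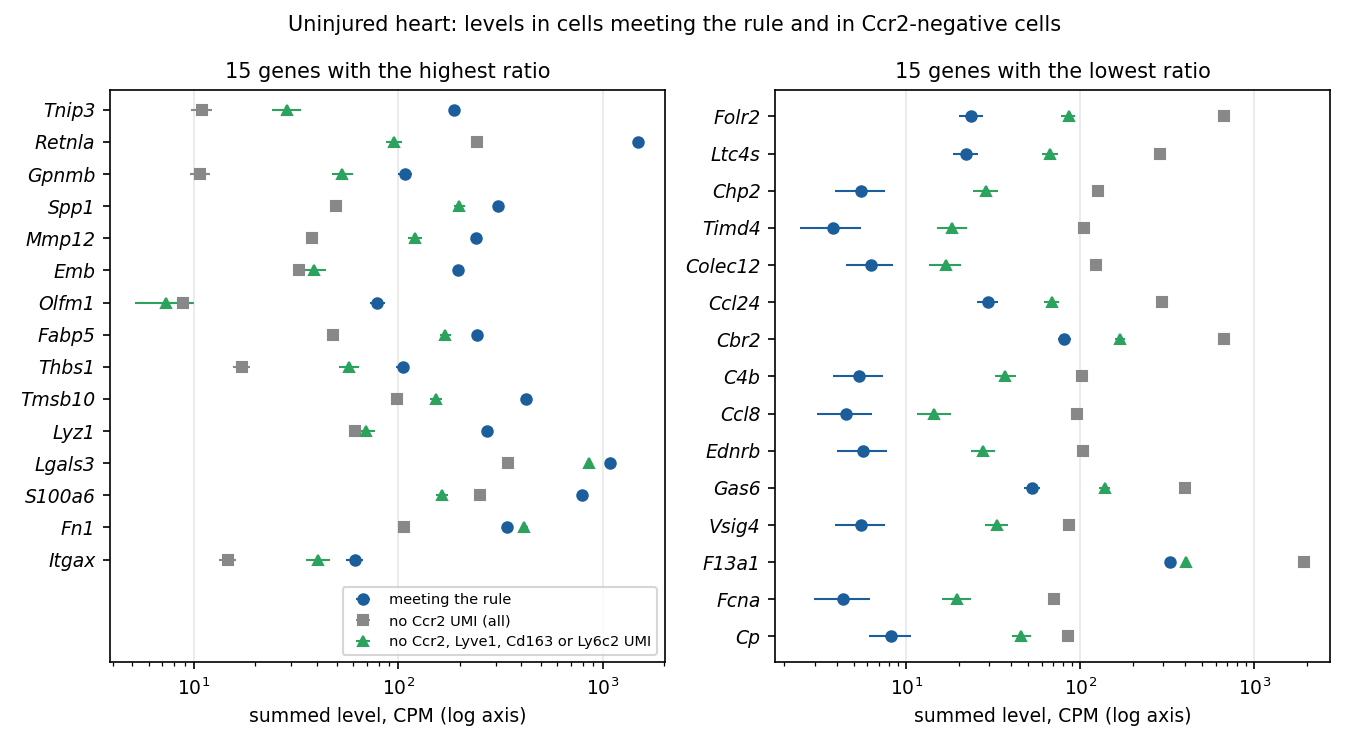
Summed level in CPM (log axis) of 30 genes, those with the 15 top and 15 bottom log2 ratios of the uninjured library, in cells meeting the rule (circles), all Ccr2-negative C1q-positive cells (squares) and those that also lacked Lyve1, Cd163 and Ly6c2 (triangles), with 95% Poisson intervals. Tnip3, Emb and Olfm1 lay far above both comparators, whereas Fn1, at 341 CPM, lay below the 413 CPM of the narrow set.

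Against the narrow set, which matches Ccr2+ macrophages for the absence of Lyve1, Cd163 and Ly6c2, fewer genes stood apart. Of 3338 genes, 19 (0.569%) were past 2-fold higher and 30 (0.899%) lower, and 14 and 15 of these were among the 46 and 97 above. Retnla (log2 ratio 3.83), Tnip3 (2.37), Olfm1 (2.37), S100a6 (2.21), Emb (2.08), Lyz1 (1.82), Tmsb10 (1.4) and Napsa (1.17) stayed past 2-fold higher. Gpnmb fell to 0.90, Spp1 to 0.60, Fabp5 to 0.49 and Fn1 to -0.27. F13a1 was at 406 CPM and Mrc1, the mannose receptor CD206, at 1167 CPM in the narrow set, close to the 327 and 848 CPM of the Ccr2+ macrophages, and 3 of 10 measured resident genes were past 2-fold lower (median -0.63). The narrow set was in turn rich in genes found in few cells. Slpi, a secreted protease inhibitor, stood at 20.9 CPM in Ccr2+ macrophages and 329 CPM in the narrow set, where 1.44% of cells held a UMI. Prg4 followed at 10.3 against 146 CPM, Cxcl13 at 2.33 against 62.0 CPM and the interferon-induced chemokine gene Cxcl10 at 21.9 against 123 CPM.

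MHC class II genes were higher in Ccr2+ macrophages than in the whole of the Ccr2-negative cells. Of the 10 genes listed, 7 reached 50 CPM and 6 of those were past 2-fold higher (median 1.12, against -0.06 over all genes). The invariant chain gene Cd74 stood at 22342 against 10538 CPM, H2-Aa at 8630 against 4102 CPM, H2-Ab1 at 8154 against 3740 CPM and H2-Eb1 at 8491 against 3605 CPM. Ciita, the transactivator that switches these genes on, stood at 218 against 90.2 CPM. H2-DMb1, part of the editor that loads peptides, stood at 627 against 260 CPM, and its partner H2-DMa, at 750 against 390 CPM, just missed 2-fold. Against the narrow set, none of the 7 was past 2-fold (median 0.37), H2-Aa being at 7078 CPM there. In the uninjured heart high MHC class II was thus shared by C1q-positive cells without Lyve1, Cd163 and Ly6c2, with or without Ccr2.

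Because the class II genes moved together, promoters of 3 of them past 2-fold at baseline are shown, H2-Aa and H2-Eb1 with the letters described next and H2-DMb1 without them. Promoters of this family carry a Y box, an inverted CCAAT element that binds NF-Y next to the X box bound by the RFX complex. The following are the RefSeq (GRCm38.p6) windows of 250 bases before to 50 after the start, 5′ to 3′ in the direction of the gene, with the letters CTGATTGG in capitals. H2-Aa lies at chr17:34287774-34288073 on the minus strand, H2-Eb1 at chr17:34305617-34305916 on the plus strand and H2-DMb1 at chr17:34152941-34153240 on the plus strand.
H2-Aa: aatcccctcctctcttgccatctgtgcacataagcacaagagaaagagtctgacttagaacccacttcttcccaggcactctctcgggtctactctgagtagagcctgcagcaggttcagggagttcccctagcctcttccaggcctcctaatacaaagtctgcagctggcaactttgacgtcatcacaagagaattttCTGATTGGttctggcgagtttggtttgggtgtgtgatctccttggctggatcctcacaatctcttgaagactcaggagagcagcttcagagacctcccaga
H2-Eb1: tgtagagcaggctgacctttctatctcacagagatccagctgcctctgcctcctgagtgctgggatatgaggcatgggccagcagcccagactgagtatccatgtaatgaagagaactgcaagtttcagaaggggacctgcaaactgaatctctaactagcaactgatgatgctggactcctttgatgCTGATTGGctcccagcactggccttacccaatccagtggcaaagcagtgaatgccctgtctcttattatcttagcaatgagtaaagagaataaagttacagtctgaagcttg
H2-DMb1: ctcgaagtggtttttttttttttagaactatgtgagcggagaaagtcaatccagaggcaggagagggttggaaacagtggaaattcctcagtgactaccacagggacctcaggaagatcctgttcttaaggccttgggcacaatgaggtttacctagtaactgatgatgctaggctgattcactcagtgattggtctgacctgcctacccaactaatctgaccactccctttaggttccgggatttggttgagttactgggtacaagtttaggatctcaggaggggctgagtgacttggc
In H2-Aa and H2-Eb1 the letters stand 51 and 62 bases before the start. The window of H2-Oa, which encodes a chain of the DM inhibitor, also holds them, 46 bases before the start, and those of H2-DMa, H2-DMb1, H2-DMb2 and H2-Ob do not. The windows of H2-DMb1, H2-DMb2 and H2-Ob do hold the shorter ATTGG, as does 1 window of H2-DMa. Searched on both strands, CTGATTGG occurs in 1346 of 32851 promoters of this length (4.1%), and the shorter ATTGG that it contains in 37.4%. Of 3 nested spellings of the X box that were also searched, the shortest occurs in 21 promoters and the longer ones in 0. Spellings this rare cannot tell whether the windows shown hold an X box. This is a description of letters and not of binding.

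The infarct libraries gave replicates for the same contrast. UMIs were summed in each infarct library over the 4150, 4348 and 4076 cells that met the rule and over its Ccr2-negative cells, and the 6 sums were compared with the library as a block. Of 12824 genes, 1142 (8.91%) were higher and 1082 (8.44%) lower in Ccr2+ macrophages at an adjusted p of 0.01 (edgeR quasi-likelihood test, Benjamini-Hochberg over all genes). These numbers lean on the pairing of sums by heart, since 186 genes passed without the block, 87 higher and 99 lower. They also lean on infarct replicate 2, without which 780 passed. No gene among the 2224 changed sign with a library left out, without the block or in DESeq2, whereas 25 did so after thinning to 2000 UMIs and 4 with the narrow comparator. The top doublet scores took 10.6% to 11.6% of the infarct Ccr2+ macrophages and 4.39% to 6.19% of their Ccr2-negative cells, and 2115 of the 2224 genes passed when these cells were left out.

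Infarct Ccr2+ macrophages were richer in MHC class II than their neighbours. H2-Eb1 stood at 4353, 4623 and 4173 CPM in Ccr2+ macrophages of infarct replicates 1, 2 and 3 and at 1026, 924 and 827 CPM in the Ccr2-negative cells. The groups did not overlap, and the log2 fold change was 2.29 (SE 0.0473, adjusted p = 4.07e-10). H2-Aa stood at 5320, 5234 and 4785 against 1447, 1249 and 1132 CPM (log2 fold change 2.05, SE 0.0406, adjusted p = 3.42e-10). All 10 class II genes tested were higher (median log2 fold change 1.95, against 0.00 over all genes tested), and all 10 also passed without the block and with replicate 2 left out, and 8 of 10 after thinning to 2000 UMIs. With the narrow set as comparator in the infarcts, H2-Eb1 was still 2.20 higher on the log2 scale, whereas at baseline the same ratio was 0.37. This difference between uninjured and infarcted hearts rests on 1 baseline library and was not tested.

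Among genes with at least 50 CPM in either class, the others of the 12 highest were Ciita, Cd74, H2-Ab1, H2-DMb1, Clec4b1, Plac8, Plbd1, Tnip3, Napsa and Il1b. Genes below that level reached larger fold changes, such as Cd209a (3.48) and Dpp4 (2.83). Mgl2, a C-type lectin receptor gene below that level in these sums, stood at 40.5, 38.3 and 58.4 against 8.64, 9.50 and 11.2 CPM (log2 fold change 2.25, adjusted p = 7.36e-09). Il1b, the gene of the inflammatory cytokine interleukin-1β, stood at 727, 885 and 705 against 317, 355 and 279 CPM (log2 fold change 1.32, SE 0.0353, adjusted p = 2.65e-09). At baseline its log2 ratio was 0.19, and -0.91 against the narrow set. Tnip3 rose in the infarcts as well, at 69.3, 47.6 and 65.5 against 24.1, 20.3 and 23.5 CPM (log2 fold change 1.45, adjusted p = 4.38e-08). Plac8 was uneven, at 121 CPM in replicate 1 and 45.4 and 39.8 CPM in replicates 2 and 3, all above the 14.2 to 20.7 CPM of the Ccr2-negative cells. At 50 CPM or more the lowest were Marco, a scavenger receptor gene (log2 fold change -3.32), Slc40a1, which encodes the iron exporter ferroportin (-1.92), Saa3 (-1.87), Cd5l (-1.82), Slpi (-1.80), Gpnmb (-1.33), Ccl8 (-1.24), Folr2 (-1.16), Pmp22 (-1.14), Serpinb6a (-1.13), Fabp5 (-1.07) and Gas6 (-1.04), each in 3 of 3 libraries. With the narrow comparator Marco was -2.54, Saa3 -1.12, Cd5l -1.27, Slpi -1.38 and Folr2 -0.66. The others of these genes changed little, such as Slc40a1 at -1.99 and Gpnmb at -1.38. Without the block Marco, Saa3, Cd5l, Slpi and Ccl8 did not pass.

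Most of the baseline differences had the same sign in the infarcts. All 46 genes past 2-fold higher at baseline were tested there, and 34 (73.9%) passed as higher and 5 (10.9%) as lower (median 0.69). Of the 97 lower genes, 79 (81.4%) passed as lower and 1 (1.03%) as higher (median -0.52). The same rule made the classes in both settings, so part of this agreement comes with the choice of cells. Of the 19 genes past 2-fold higher against the narrow set at baseline, 10 (52.6%) passed as higher in the same infarct test and 1 (5.26%) as lower. Of the 30 lower against that set, 18 (60%) passed as lower and 3 (10%) as higher. Olfm1 (log2 fold change 1.13), Emb (0.94), Itgax (1.23), Napsa (1.37), Retnla (1.58), Tmsb10 (0.42) and S100a6 (0.47) rose in both settings, although S100a6 in replicate 3 was 532 CPM against 526 CPM in its Ccr2-negative cells. The resident list fell again, with 12 of 14 genes lower and Retnla alone higher. The same removal of Lyve1 and Cd163 cells applies in each infarct library, so this is no independent evidence of direction.

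**Figure D3:**
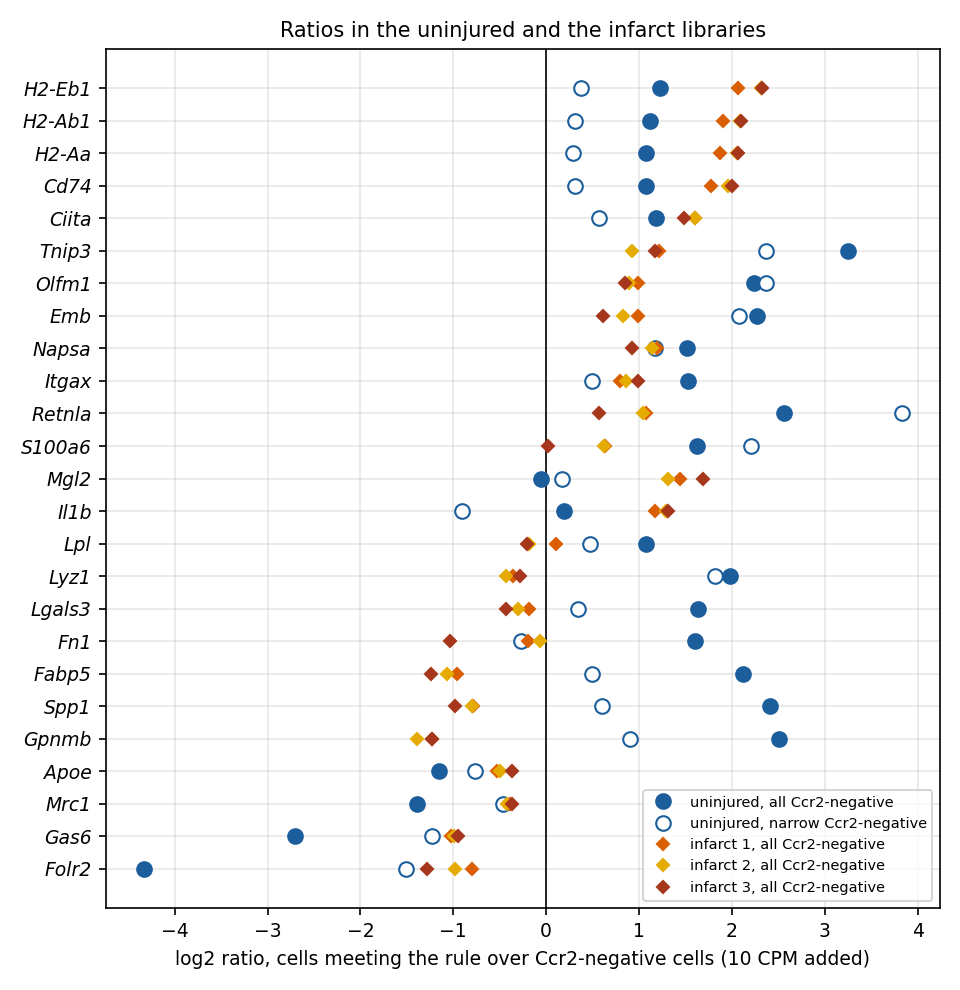
Log2 ratio (10 CPM added) of cells meeting the rule over Ccr2-negative cells for 25 genes, in the uninjured library (filled circles, all Ccr2-negative cells; open circles, those without Lyve1, Cd163 or Ly6c2) and in each infarct library (diamonds). MHC class II genes lay to the right of 0 in all libraries, whereas Gpnmb, Spp1, Fabp5, Fn1, Lgals3 and Lyz1 lay on opposite sides of 0 in the uninjured (filled circles) and infarct libraries.

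Counts for groups of other function in the infarcts are given beside 8.91% higher and 8.44% lower over all genes tested. Dendritic cell genes were higher in 11 of 14 tested and lower in none (median 1.30), and stayed so for 7 without the block. The strongest were low in level: Cd209a stood at 7.46, 5.42 and 8.14 CPM in Ccr2+ macrophages and at 0.330 to 0.930 CPM in the Ccr2-negative cells. Leaving out all cells with a UMI of Flt3, Cd209a, Zbtb46, Xcr1 or Clec9a kept 2075 of the 2224 calls. Proliferation genes were higher in 11 of 12 (median 0.53), with Top2a at a log2 fold change of 0.67, but in 2 of 12 after thinning to 2000 UMIs and in 1 without the block, and in 6 without replicate 2. The summed proliferation list was 857 CPM in Ccr2+ macrophages and 750 CPM in Ccr2-negative cells at baseline, and 767 to 821 against 561 to 661 CPM in the infarcts. Immediate-early and heat-shock genes, which respond to tissue digestion, were higher in 10 of 14 (median 0.26), with Hspa1b at 0.74, and in 0 of 14 without the block. Among chemokine ligand genes 7 of 22 rose and 4 fell (median 0.16); Cxcl2 rose by 0.38 and Ccl4 by 0.37, and Ccl8 and Pf4 fell by 1.24 and 0.68. No chemokine ligand gene passed without the block, and without replicate 2 the numbers were 3 and 4. Of the cytokine and NF-κB list 7 of 20 rose and none fell (median 0.20), and 2 rose without the block. B-cell genes also rose, 4 of 5 (median 0.57, summed level 243 to 286 against 165 to 196 CPM) and 0 without the block, whose part in the results was not tested. Macrophage identity genes rose in 2 of 13 and fell in 7 (median -0.16), 0 and 2 without replicate 2. Classical monocyte genes rose in 5 of 14 and fell in 2, chemokine receptor genes rose in 5 of 12 and fell in 5, and Toll-like receptor genes rose in 2 of 12 and fell in 4. Without replicate 2 these became 2 and 1, 0 and 3, and 1 and 1, and without the block no gene of the 3 lists passed. With the narrow comparator classical monocyte genes rose in 7 of 14 and fell in 1, and the other lists of the 3 kept their numbers. After thinning to 2000 UMIs, 8 of 13 classical monocyte genes rose and 1 fell. Chemokine receptor genes then rose in 2 of 10 and fell in 5, and Toll-like receptor genes rose in 0 of 12 and fell in 1. Transcription factor genes rose in 3 of 20 and fell in 6, 1 and 2 without replicate 2. Non-classical monocyte genes rose in 5 of 10, 2 without the block, and growth factor and matrix genes rose in 1 of 16 and fell in 6, 0 and 2 without the block. Integrin genes rose in 2 of 13 and interferon-stimulated genes in 1 of 14, near the share over all genes. Without replicate 3 these became 4 higher and 3 lower, and 1 higher and 3 lower. Neutrophil, endothelial, fibroblast and erythroid genes showed no call among 4, 5, 4 and 2 tested, although all 4 fibroblast genes were lower without replicate 1 and 2 of them higher without replicate 3. Of 5 cardiomyocyte genes 1 rose, and 0 without the block.

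Several genes of lipid handling and lysosomes that are induced with TREM2 ran in opposite directions when all Ccr2-negative cells were the comparator. At baseline 5 of 15 were past 2-fold higher in Ccr2+ macrophages and 2 lower (median 0.60), and in the infarcts 0 of 15 rose and 14 fell (median -0.51), 4 without the block. Against the narrow set at baseline, 0 of 15 were past 2-fold higher and 0 lower (median 0.34). The list summed at baseline to 13984 CPM in Ccr2+ macrophages and 22385 CPM in the Ccr2-negative cells. Gpnmb, a lysosomal glycoprotein gene, stood at 108 against 10.7 CPM at baseline. In the infarcts it was at 120, 78.8 and 118 CPM in Ccr2+ macrophages and at 296, 223 and 291 CPM in the Ccr2-negative cells (log2 fold change -1.33, SE 0.0410, adjusted p = 7.96e-09). Spp1, which encodes osteopontin, stood at 306 against 49.7 CPM at baseline and at 1132, 1058 and 711 against 1971, 1853 and 1411 CPM in the infarcts (log2 fold change -0.83, adjusted p = 1.06e-07, and 0.0524 without the block). Spp1 in the Ccr2-negative cells was thus 49.7 CPM at baseline and 1411 to 1971 CPM in the infarcts. In Ccr2+ macrophages it was 306 CPM at baseline and 711 to 1132 CPM in the infarcts. The cause of the opposite signs was not tested. Without the baseline cluster led by Gpnmb and Spp1, described below, the baseline log2 ratios were -0.91 for Gpnmb, -0.38 for Spp1 and -0.64 for Fabp5. At baseline these transcripts sat in few cells. The 10 richest Ccr2+ macrophages held 79.1% of their Gpnmb UMIs, 76.6% of Spp1 and 71.8% of Fabp5, and a UMI was present in 4.76%, 16.7% and 16.7% of cells, against 0, 3.23% and 66.7% of endothelial marker cells, the last of which transcribe Fabp5.

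Within the Ccr2+ macrophages, levels changed with the amount of Ccr2. In baseline cells with 1, 2 to 4, 5 to 9 and 10 or more Ccr2 UMIs (131, 159, 209 and 404 cells), Retnla stood at 28.3, 33.3, 897 and 2368 CPM. Tnip3 stood at 81.9, 69.6, 141 and 258 CPM and Emb at 78.7, 103, 147 and 261 CPM over the same steps. Spp1 ran the other way, at 905, 769, 247 and 101 CPM, and so did Gpnmb at 250, 311, 82.6 and 38.0 CPM. These steps of Spp1 and Gpnmb rest on few cells, as 76.6% and 79.1% of their UMIs lay in the 10 richest cells. The Retnla steps rest on a minority of cells as well. A Retnla UMI was found in 21.6% of Ccr2+ macrophages, and the 10 richest cells held 45.0% of its UMIs. The cluster led by Gpnmb and Spp1, described below, had a median of 10 Ccr2 UMIs, against 8 over all Ccr2+ macrophages. Deeper cells hold more UMIs of any gene, with medians of 4605 and 8952 UMIs at the ends, so the cells were also ordered by Ccr2 UMIs per 10000. From the lowest to the highest of 4 groups of equal size (226 cells in each of these ends, median depths 6922 and 7652), Retnla went from 232 to 2924 CPM, Emb from 88.1 to 285 and Ciita from 134 to 282 CPM, whereas Spp1 went from 928 to 74.4, Fabp5 from 736 to 40.5 and Il1b from 1241 to 507 CPM. These values describe 1 library and were not tested.

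In the infarcts H2-Aa climbed steeply with Ccr2. From 0 to 10 or more Ccr2 UMIs it went from 1536 to 6859, from 1268 to 7104 and from 1216 to 6393 CPM in infarct replicates 1, 2 and 3. At baseline it went from 7078 to 8904 CPM, high already in cells without Ccr2. Il1b crossed over: in the infarcts it rose over these steps from 338 to 824, from 366 to 1163 and from 305 to 766 CPM, and at baseline it dropped from 1599 to 577 CPM. Spp1 fell with Ccr2 in all infarcts, from 1992 to 826, from 1871 to 809 and from 1471 to 536 CPM. At baseline the narrow Ccr2-negative set held only 199 CPM of Spp1, and the peak lay in cells with 1 Ccr2 UMI.

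**Figure D4:**
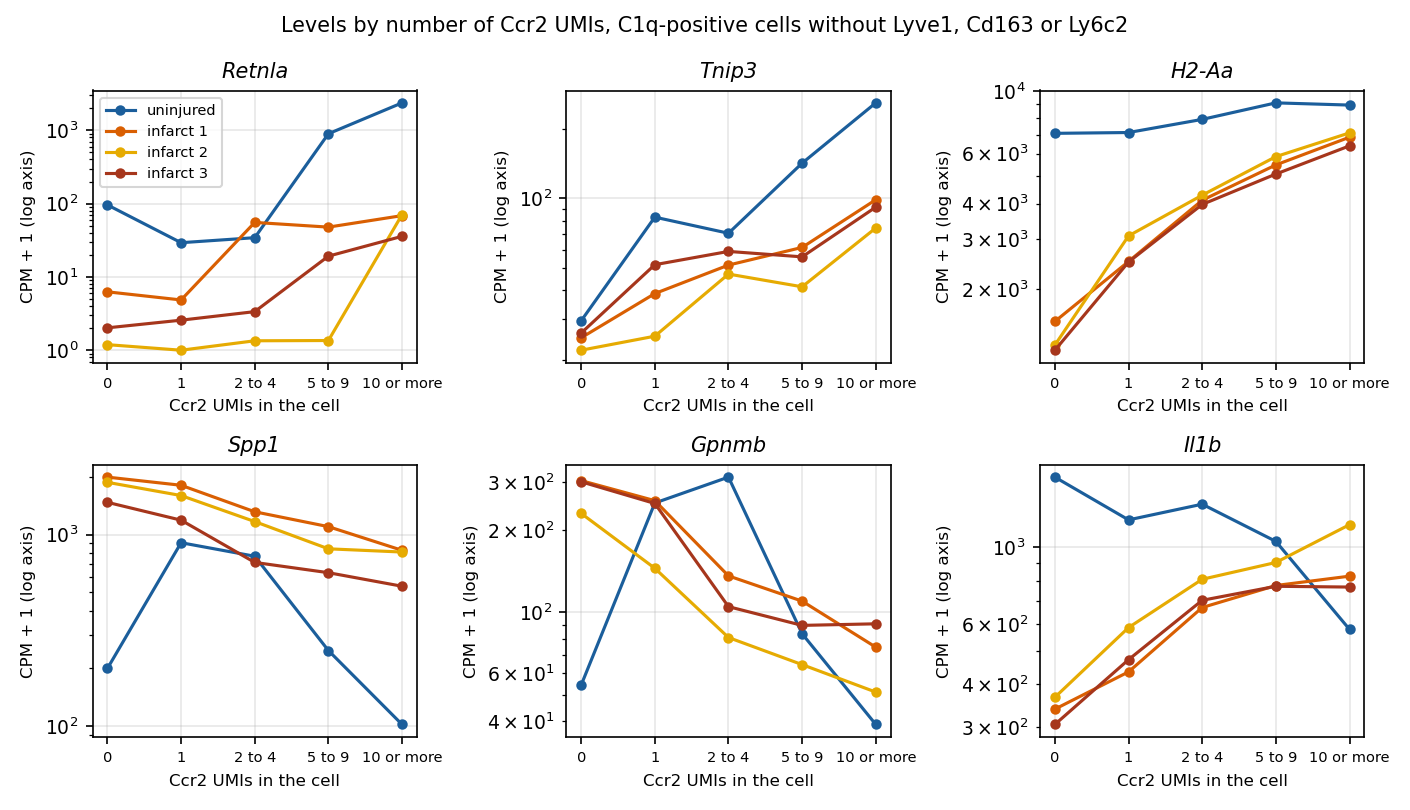
Summed level (CPM + 1, log axis) of 6 genes in C1q-positive cells without Lyve1, Cd163 or Ly6c2, grouped by the number of Ccr2 UMIs in the cell, for each library (1 line each). Retnla at baseline went from 95 CPM in cells without Ccr2 to 2368 CPM in cells with 10 or more UMIs, H2-Aa was nearly flat at baseline and rose in all infarcts, and Il1b fell at baseline and rose in all infarcts. Of the Retnla UMIs in baseline Ccr2+ macrophages, 45.0% lay in 10 cells.

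The 903 cells were not uniform. Clustering gave 7 clusters, described here by their leading genes and not tested. Cluster 1 (269 cells) was led by Lilra5 and Slco2b1 and had the highest H2-Aa, 11468 CPM, with little Retnla (24.5 CPM). Cluster 2 (227 cells) was led by Cd207, Ccl4, Cxcl2 and Ccl3, with Ccl4 at 2536 CPM and Il1b at 1310 CPM. Clusters 3 (153 cells) and 4 (130 cells) held Retnla at 2527 and 5397 CPM and the highest Ccr2, 1969 and 1708 CPM, but they parted in Il1b, at 236 and 1284 CPM. Cluster 5 (77 cells, 8.53%) was led by Gpnmb, Spp1 and Fabp5, with Gpnmb at 702 CPM and at most 2.16 CPM in any other cluster, Ctsd, a lysosomal protease gene, at 3156 CPM, Apoe at 15230 CPM and H2-Aa at 4202 CPM, the lowest of all. Without cluster 5 the baseline log2 ratios of Gpnmb, Spp1 and Fabp5 turned to -0.91, -0.38 and -0.64, and that of Ctsd from 0.60 to -1.23. Cluster 6 (27 cells) mixed immunoglobulin, endothelial and monocyte genes, and 25 of its cells were among the top doublet scores. Cluster 7 (20 cells) was led by cell cycle genes, with Mki67 at 2442 CPM, and without it the baseline log2 ratios of Mki67 and Top2a went from 0.52 and 0.50 to -1.28 and -1.14. Leaving out cluster 6 or cluster 7 left 138 and 144 genes past 2-fold in place of 143.

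**Figure D5:**
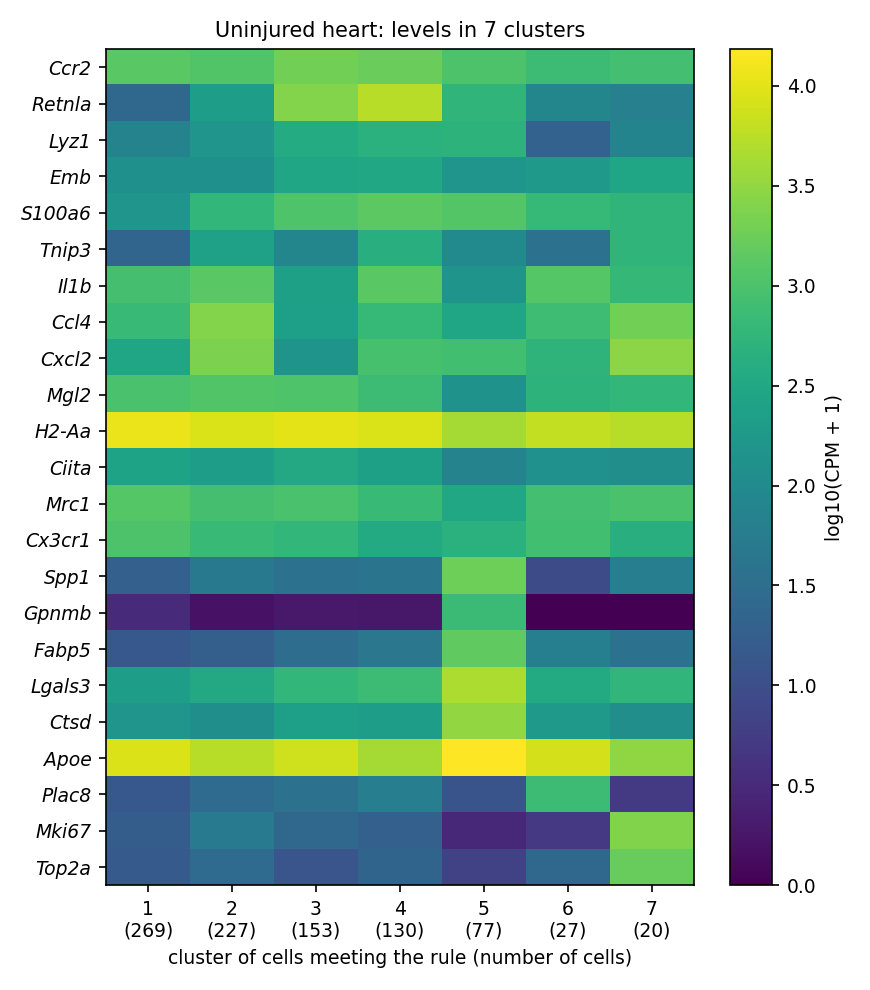
Summed level, log10(CPM + 1), of 23 genes in the 7 clusters of Ccr2+ macrophages of the uninjured heart, with the number of cells in each. Retnla stood out in clusters 3 and 4, Gpnmb, Spp1, Fabp5 and Ctsd in cluster 5 and Mki67 and Top2a in cluster 7, whereas Ccr2 lay between 746 and 1969 CPM in all.

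Ccr2+ macrophages of infarcts differed in turn from those of the uninjured heart. Of 3335 genes, 44 (1.32%) were past 2-fold higher and 56 (1.68%) past 2-fold lower than baseline in all 3 infarct libraries, without a test. With TMM scaling the numbers were 69 and 32, as it moved the median log2 ratio of all genes from -0.10 to 0.16. The summed level of Retnla was far lower, at 51.0, 17.8 and 16.5 CPM in infarct replicates 1, 2 and 3 against 1482 CPM at baseline (mean log2 ratio -5.28). At baseline 21.6% of Ccr2+ macrophages held a Retnla UMI, and 45.0% of its UMIs lay in 10 cells. The rule was also met by 49.9% of C1q-positive cells in the infarcts, against 13.5% at baseline. The part of this wider membership in the lower level was not tested. Mgl2 stood at 40.5, 38.3 and 58.4 against 815 CPM and Lyz1 at 14.0, 9.37 and 21.7 against 272 CPM. The fatty acid receptor gene Cd36 stood at 68.2, 31.6 and 42.7 against 378 CPM. Mmp13, Lilra5, Hspa1b and Alox5 were the others of the 8 lowest, with mean log2 ratios from -2.35 to -2.16. In the opposite direction, Arg1, the gene of arginase, stood at 271, 45.8 and 158 against 1.02 CPM, and Ms4a7 at 1936, 2980 and 2607 against 284 CPM. The lipoprotein gene Apoe stood at 30205, 39201 and 35748 against 7763 CPM. Ccl8, Ly6a, C4b, Cxcl10 and Fcrls completed the 8 highest, with mean log2 ratios from 2.00 to 3.93. The spread among infarcts was wide for Arg1 and narrow for Apoe, and for both genes every infarct lay above baseline. Trem2-associated genes split, with 5 of 15 past 2-fold higher, among them Ctsd at 2355, 1987 and 2002 against 624 CPM, and 3 lower. None of the 7 class II genes was past 2-fold lower in all 3 infarcts (median -0.82, against -0.10 over all genes), though H2-Eb1 in replicate 3 (-1.02) and Ciita in replicates 2 and 3 (-1.37 and -1.32) were.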

How the data were processed

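Droplet libraries had been prepared from EGFP+ Ly6G- cells of 1 baseline sample (3 pooled hearts) and 3 infarct samples. The authors deposited raw UMI counts per gene and cell, made with Cell Ranger 3.1.0 per the file headers (3.0.1 in the submitters' processing notes) on the mm10 reference, restricted to cell-containing barcodes. All later steps are those of the present re-analysis.

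The filter kept cells of 500 to 40000 UMIs with more than 200 genes. UMIs were summed per library and class. Infarct sums (6) were compared with edgeR 4.0.16 in R 4.3.3 (TMM scaling, filterByExpr, quasi-likelihood test, library as a block, Benjamini-Hochberg adjustment across every tested gene, threshold 0.01). The pairing follows from the design, each library being 1 heart that gave both of its sums. Genes of the rule, mitochondrial and sex-linked genes were not tested. Baseline classes, and infarct against baseline, were compared without a test as CPM without mitochondrial genes, with 10 CPM added on the log2 scale and a minimum of 50 CPM. Exact 95% intervals (scipy 1.17.1) cover counting error only. Depth ran from 71093963 UMIs in the baseline library to 97944428 in infarct replicate 2. Clusters came from scanpy 1.11.5 and leidenalg 0.10.2, plots from matplotlib 3.10.9.

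Named genes are the 15 highest and 15 lowest ratios at baseline, the 12 highest and 12 lowest fold changes of the infarct test (past the threshold, the same way in 3 of 3 libraries, at least 50 CPM), the 8 highest and 8 lowest of infarct against baseline, and any gene of 24 lists. Genes of the rule, mitochondrial, ribosomal, sex-linked and predicted genes were not ranked. Prg4, Slco2b1, Cd207 and the leading genes of clusters were chosen after their values were seen. The members, the lists and the rule were chosen with earlier results of these data known. The edgeR step was tested on simulated data with the mean levels of the Ccr2-negative infarct sums and the library sizes of all infarct sums. Every simulated sum had the same underlying gene means, apart from the changed genes, and a single dispersion, without differences between hearts. The simulation therefore cannot show how well errors are controlled in sums paired by heart. Of 198 changed genes among 12659, 91.3% of those changed 2-fold and 37.2% of those changed 1.4-fold were recovered, with 2 unchanged genes called.

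Other settings were the narrow comparator, thinning to 2000 UMIs, removal of the top doublet scores (8 per 1000 for every 1000 cells, since the automatic Scrublet threshold called 0 or 1 cell in each infarct library), a C1q minimum of 60, at least 2 Ccr2 UMIs, cells over 10% mitochondrial or with dendritic markers left out, no block, DESeq2 1.42.0 size factors and Wald test, no filter, TMM or mean CPM per cell at baseline, a minimum of 20 CPM, 1 CPM added, and each infarct library left out. Settings without cluster 5, 6 or 7, without the 10 richest cells, and with thinned counts in classes set on all UMIs were added after the data were seen.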

Additional observations from a re-analysis of the deposited data

Results flagged for a closer look

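For 6 named genes, Ccr2+ macrophages lay above the Ccr2-negative cells at baseline and below them in every infarct library. The log2 ratio at baseline was 2.51 for Gpnmb (-1.39 to -1.23 in the infarcts), 2.41 for Spp1 (-0.98 to -0.79), 2.12 for Fabp5 (-1.24 to -0.96), 1.98 for Lyz1 (-0.43 to -0.28), 1.63 for Lgals3 (-0.43 to -0.18) and 1.60 for Fn1 (-1.03 to -0.07). The difference between uninjured and infarcted hearts was not tested, since the baseline is 1 library. Against the narrow Ccr2-negative set the baseline ratios were 0.90, 0.60, 0.49, 1.82, 0.34 and -0.27 in the same order, so that Lyz1 alone stayed past 2-fold.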

How the results depend on the processing

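In the infarct test, where 2224 genes passed, 1142 higher and 1082 lower, the number was 1134 (582 and 552) after thinning to 2000 UMIs, 186 (87 and 99) with no replicate block and 1264 (647 and 617) by the DESeq2 Wald test. Leaving out an infarct replicate gave 780 to 2728 genes (343 to 1377 higher, 437 to 1351 lower), the lowest without replicate 2. At baseline, 143 genes past 2-fold became 49 (19 and 30) with the narrow comparator, the higher genes became 72 with a minimum of 20 CPM and 30 without the 10 richest cells of each class. The share of 13.5% became 16.7% after thinning and 11.6% with at least 2 Ccr2 UMIs. For infarct against baseline, 44 higher and 56 lower genes became 69 and 32 with TMM scaling, 94 were lower with a minimum of 20 CPM, and leaving out an infarct replicate gave 47 to 48 higher and 59 to 72 lower. The following named or listed genes turned in sign, on the log2 scale, and were past 2-fold (baseline) before or past the threshold (infarcts) before or after. Smaller ratios that turned are not listed. At baseline, without the Gpnmb and Spp1 cluster, Gpnmb was -0.91, Spp1 -0.38 and Fabp5 -0.64, and with the narrow comparator Fn1 was -0.27. In the infarcts, thinned, Ccl2 was -0.05, Cxcl10 -0.20, Cxcl3 -1.25, Ifit1 -0.37, Rrm2 -0.65 and Stmn1 -0.00. Over the fits that left out a replicate, Ccl6 ran from -0.32 to 0.39, Col1a1 from -0.68 to 0.52, Col3a1 from -0.70 to 0.40, F10 from -0.35 to 0.30, Ifit1 from -0.16 to 0.15, Ifit3 from -0.19 to 0.14 and S100a8 from -0.46 to 0.70, and with the narrow comparator Bhlhe40 was 0.28. The cause was not tested. Over the named and listed genes of the infarct test, 3602 values at other settings kept sign and side of the threshold, 265 lost and 152 gained the call. Depth limits genes under about 10 CPM, where the added CPM shrinks ratios, and classes set by 1 UMI.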
